A study of Rattus norvegicus with 81 samples.

Results

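The collagen gene family was followed in the mammary gland of female Sprague-Dawley rats. Its members were taken as every gene whose array probe set (transcript cluster) carried a single symbol of the form Col, number, a, number, with 1 further chain not reported here, and each gene was read from its cluster with the highest mean. This gave 35 collagen genes among 18166 measured genes. They comprised 11 fibrillar chains, 5 basement membrane chains, 3 beaded filament chains, 7 fibril-associated chains (FACIT), 3 network-forming chains, 2 multiplexins and 4 other chains (Col7a1, Col13a1, Col23a1 and Col26a1). The deposited table for diethyl phthalate held 6762 genes, among them 21 of the 35. The other 14, which include Col1a1 and Col3a1, were not analysed here for that chemical.

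The series held 81 arrays of total RNA from the caudal glands, in 18 groups. Olive oil (OIL) was the vehicle and the control, and the chemicals given in it were triclosan (TCS), methyl paraben (MPB) and diethyl phthalate (DEP). Exposure through the dam during gestation days (GD) 1-20 or through milk during postnatal days (PND) 1-20 ended with 1 female pup per litter killed at PND 21. Exposure during PND 21-41 ended at PND 42, and exposure during PND 42-62 ended at PND 63. In the chronic window TCS or OIL was given from PND 1 through mating, pregnancy and lactation to PND 146. Most groups held 5 arrays. The TCS animals numbered 4 in the PND 1-20 window and 3 in each of the PND 21-41 and PND 42-62 windows, and the chronic groups held 3 each. The labels name separate animals, so p-values measure the spread between these animals and their arrays.

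Collagens are helical proteins wound from alpha chains, each encoded by its own gene. Fibrillar types I, III and V give the stroma of the mammary gland its tensile strength, type IV forms the sheet-like basement membrane under epithelium, fat cells and vessels, type VI forms beaded microfilaments around cells, and type VII forms the anchoring fibrils that tie a basement membrane to the stroma. In the growing gland, ducts push through a fat pad and are wrapped in new stroma, so chains of several classes are made side by side, mainly by fibroblasts, but also by fat cells, endothelium and epithelium. In whole-gland RNA, fewer cells of a type and less RNA per cell cannot be told apart.

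The start regions of the genes on which the results turn are printed first. For type IV these are the stretches common to the windows of paired genes, and no relation between a shared stretch and expression was tested. They are RefSeq windows of the rat build GRCr8, reaching from 250 bases before to 50 bases after each start site, and 29 of the 35 genes had a window (31 windows in all, since Col24a1 had more than 1). Col4a1 and Col4a2 lie head to head, Col4a1 on the plus strand and Col4a2 on the minus strand, and the stretch common to both windows is chr16:84885471-84885646 (plus strand), with the start sites 77 bases apart. Col4a3 (plus) and Col4a4 (minus) share chr9:91323740-91323827 (plus strand), with start sites 413 bases apart. Col6a6 and Col7a1 are shown as the chains that passed the test between PND 21 and PND 42 in all 4 treatments, Col6a6 falling and Col7a1 rising, at chr8:115352112-115352411 (minus strand) and chr8:118483114-118483413 (plus strand). Capitals mark the motifs CCAAT, read as ATTGG on the other strand, and GGGCGG, read as CCGCCC.
Col4a1 and Col4a2 shared stretch: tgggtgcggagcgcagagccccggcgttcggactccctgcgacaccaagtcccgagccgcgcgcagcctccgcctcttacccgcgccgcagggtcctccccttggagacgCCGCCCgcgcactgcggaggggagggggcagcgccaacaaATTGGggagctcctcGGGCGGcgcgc
Col4a3 and Col4a4 shared stretch: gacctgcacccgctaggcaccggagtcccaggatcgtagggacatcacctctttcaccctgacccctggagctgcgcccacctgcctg
Col6a6: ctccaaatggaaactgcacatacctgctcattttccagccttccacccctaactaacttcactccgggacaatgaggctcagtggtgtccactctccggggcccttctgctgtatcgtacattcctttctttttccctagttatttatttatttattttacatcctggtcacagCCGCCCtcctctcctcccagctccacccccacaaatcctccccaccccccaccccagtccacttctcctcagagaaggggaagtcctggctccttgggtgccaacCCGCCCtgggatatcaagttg
Col7a1: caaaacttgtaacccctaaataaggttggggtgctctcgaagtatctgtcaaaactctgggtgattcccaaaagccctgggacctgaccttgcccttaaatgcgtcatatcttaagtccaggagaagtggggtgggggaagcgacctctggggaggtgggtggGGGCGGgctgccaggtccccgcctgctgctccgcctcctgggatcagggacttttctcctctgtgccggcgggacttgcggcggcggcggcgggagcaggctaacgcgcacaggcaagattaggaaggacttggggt

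The Col4a1 and Col4a2 stretch was 176 bases long with a GC content of 75%, and held 1 CCAAT (as ATTGG) and 2 GGGCGG boxes, 1 on each strand. The Col4a3 and Col4a4 stretch was 88 bases long, had a GC content of 65.9% and held neither motif. The Col6a6 window held 2 GGGCGG boxes and the Col7a1 window 1. Across the family, 19 of 31 windows (61.3%) held GGGCGG on either strand against 33.1% of all 33469 windows, 7 (22.6%) held CCAAT against 37.5%, and 3 (9.68%) held TATAAA, or TTTATA on the other strand, against 14.2%. Some windows of the family overlap, among them those of Col4a1 and Col4a2 and those of Col24a1, so a box can be counted more than once. The median GC content of all 33469 windows was 51.7%. A match to these letters is a description of the sequence only.

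Values are log2 expression as deposited, and how precise they are depends on the number of arrays in a group. Array medians lay between 7.09 and 7.27 in the table of MPB, TCS and OIL, between 8.18 and 8.39 in the table of DEP and its OIL arrays, and between 5.34 and 5.43 in the chronic table. These tables were normalized separately, so no level is compared across them. Over the 55 arrays of the first table the fat cell hormone Adipoq ranged from 11.83 to 13.41 and the stromal proteoglycan Dcn from 12.16 to 13.38. The epithelial keratin Krt8 ranged from 6.70, below the array medians, to 9.97. The epithelial adhesion gene Epcam read 4.73 and 4.16 in MPB after GD 1-20 replicates 1 and 3 and 4.76 in OIL after GD 1-20 replicate 2, apart from the other arrays, and these 3 are called low-Epcam arrays. The skeletal muscle actin gene Acta1 spread wider, between 7.12 and 13.69. The score of a muscle marker list exceeded 1 in 7 arrays of this table, in 7 of the DEP and OIL table and in 1 chronic OIL array, and these arrays are called muscle-rich. Batch was spread as 3 and 2 arrays over groups of 5, and all TCS arrays after PND 21-41 and PND 42-62 were of batch 1.

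The OIL glands show how the family differed between ages in vehicle animals. In every treatment each age had its own window of dosing, so age and window cannot be told apart in these steps. Between PND 21 and PND 42, 7 of the 35 genes rose (12% of all genes did) and 3 fell (10.5% of all genes did), at an adjusted p under 0.05 in limma. The genes that rose were the fibril-associated Col16a1, the anchoring fibril gene Col7a1, the beaded filament gene Col6a2, the fibrillar genes Col1a2, Col3a1 and Col5a1, and the transmembrane collagen gene Col13a1. The genes that fell were Col6a6, a further type VI chain, and the basement membrane genes Col4a3 and Col4a4. Of the 35, 22 had a positive difference, with a median of 0.10 on the log2 scale against 0.01 over all genes. The shares of the family called were above that of all genes for rises and below it for falls, and no test of the family as a set was made.

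**Figure D1:**
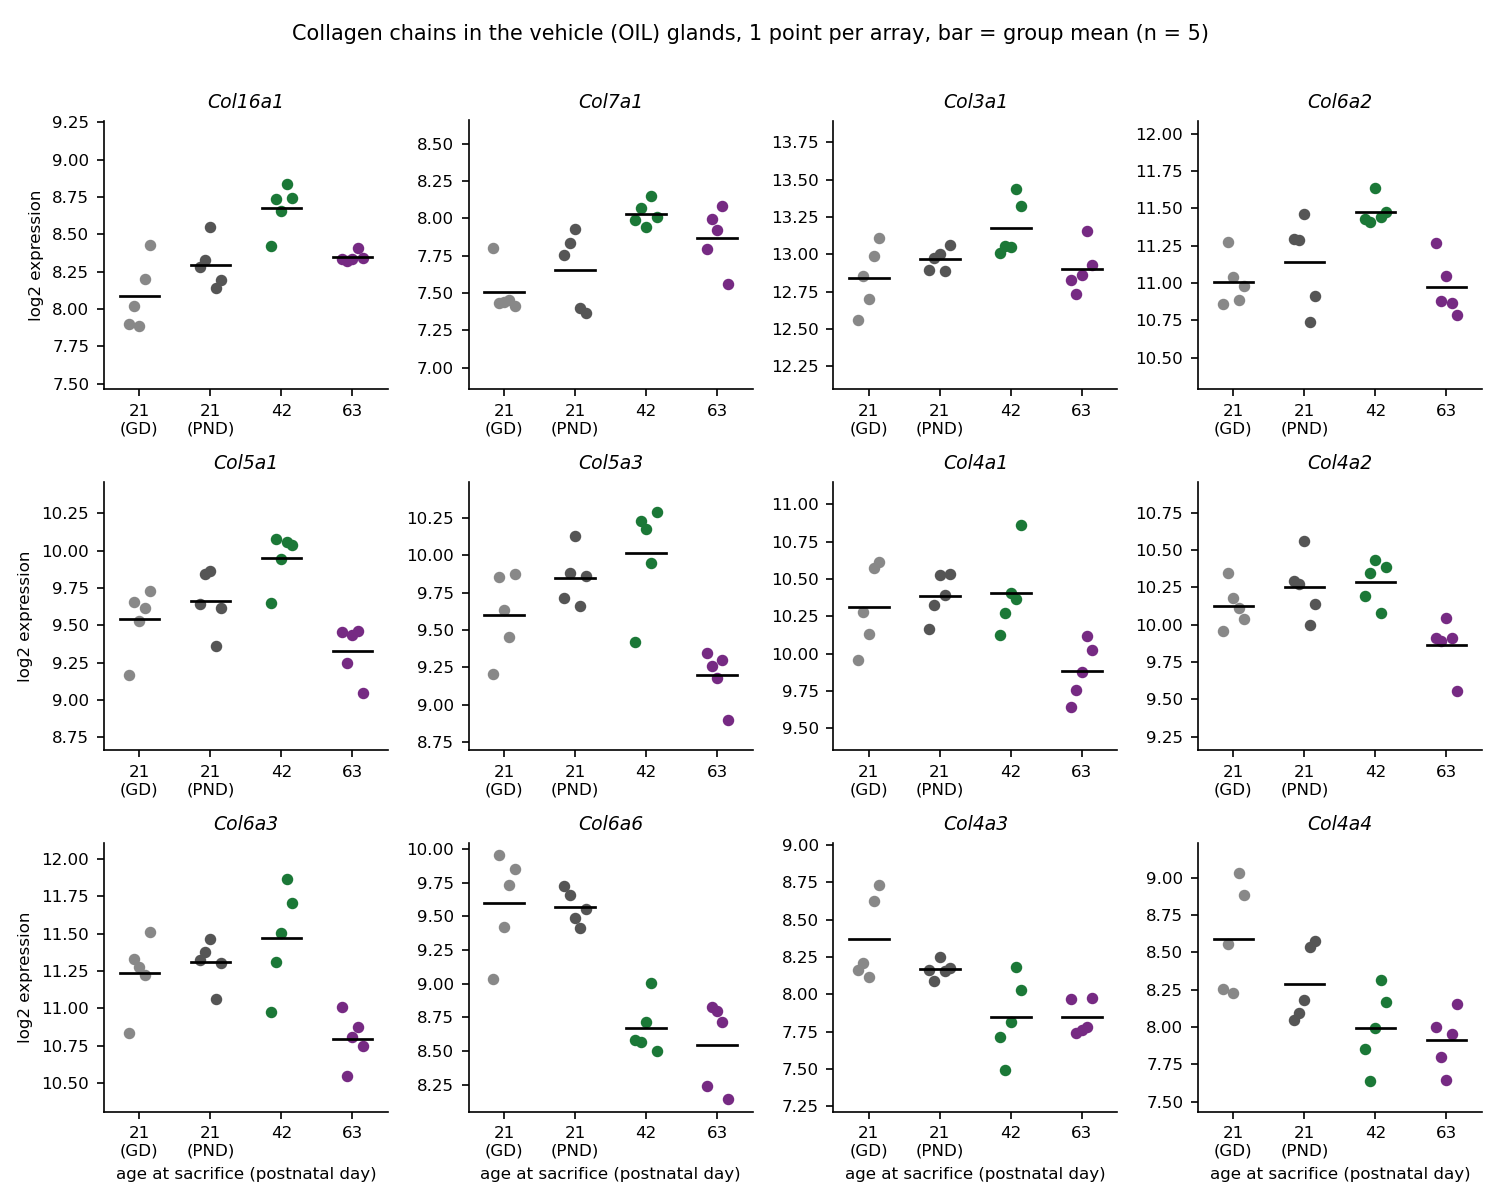
Log2 expression of 12 collagen genes in the OIL glands, with 1 point per array and a bar at the mean of each group of 5; the horizontal axis gives the age at sacrifice, with the groups exposed during GD 1-20 and PND 1-20 apart at PND 21. Col6a6 at PND 42 sits between 8.50 and 9.01, below all 10 arrays of PND 21, and Col5a3 at PND 63 sits between 8.90 and 9.35, below all 5 arrays of PND 42.

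Col6a6 (cluster 17855315) encodes an alpha chain of type VI collagen found beside the more abundant chains in a restricted set of tissues. In OIL its 10 arrays at PND 21 ran from 9.03 to 9.96 with a median of 9.61. At PND 42 its 5 arrays read 8.58, 8.57, 8.71, 9.01 and 8.50, and at PND 63 they read 8.24, 8.83, 8.80, 8.72 and 8.14. The highest array of PND 42 thus lay below the lowest of PND 21, while PND 42 and PND 63 overlapped. The difference from PND 21 to PND 42 was -0.91 ± 0.14 (SE, adjusted p = 0.000177), and it was -0.93 in batch 1 and -0.88 in batch 2.

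Col4a3 and Col4a4 encode chains of the specialised type IV network known from kidney and lung basement membranes. Col4a3 ran from 8.09 to 8.73 at PND 21 (median 8.17) and read 7.71, 7.5, 7.82, 8.18 and 8.03 at PND 42. Col4a4 ran from 8.04 to 9.03 at PND 21 (median 8.40) and read 7.85, 7.64, 7.99, 8.31 and 8.16 at PND 42. The ages overlapped in both genes. The differences were -0.42 ± 0.09 for Col4a3 (adjusted p = 0.00181) and -0.45 ± 0.08 for Col4a4 (adjusted p = 0.000647). The general chains of the same family, Col4a1 and Col4a2, differed by 0.06 ± 0.09 and 0.10 ± 0.08 over the same interval and did not pass (adjusted p = 0.727 and 0.46).

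Col7a1 (cluster 17847885) encodes the sole chain of the anchoring fibril collagen. It ran from 7.36 to 7.93 at PND 21 with a median of 7.45, and read 7.99, 8.07, 7.94, 8.15 and 8.01 at PND 42. Every array of PND 42 lay above every array of PND 21, by a narrow margin. The rise was 0.45 ± 0.09 (adjusted p = 0.00193), 0.30 in batch 1 and 0.67 in batch 2. At PND 63 the 5 arrays read 7.79, 7.99, 7.92, 8.08 and 7.56, 3 of them below the lowest array of PND 42 (-0.16 ± 0.11, adjusted p = 0.588).

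Col16a1 (cluster 17802515), a fibril-associated chain, ran from 7.88 to 8.55 at PND 21 (median 8.19) and read 8.42, 8.73, 8.65, 8.84 and 8.74 at PND 42. Only the lowest of these 5 fell inside the range of PND 21. Its rise was 0.49 ± 0.09 (adjusted p = 0.000472). Col6a2, a core chain of type VI microfilaments, rose by 0.40 ± 0.09 (adjusted p = 0.00288) to 11.43, 11.41, 11.64, 11.44 and 11.48 from a median of 11.01. Its 5 arrays of PND 42 ranged more narrowly than the 10 of PND 21, which ran from 10.74 to 11.46.

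Among the fibrillar genes, 10 of 11 had a positive difference and 3 passed. Col3a1, the chain of type III collagen, rose by 0.27 ± 0.07 (adjusted p = 0.00738), from a median of 12.94 at PND 21 to values between 13.01 and 13.43. Col5a1, of the type V collagen that sets fibril diameter, rose by 0.35 ± 0.11 (adjusted p = 0.0233), and Col1a2, of type I collagen, by 0.30 ± 0.10 (adjusted p = 0.0294). Col1a1, the partner chain of Col1a2, differed by 0.18 ± 0.08 and did not pass (adjusted p = 0.133). None of the 3 network-forming genes passed, and all 3 had negative differences (Col8a1 -0.30 ± 0.13).

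With any 1 of the 15 OIL arrays left out, Col16a1, Col3a1, Col4a3, Col4a4, Col6a2, Col6a6 and Col7a1 stayed past the threshold. Col1a2 lost it without OIL after PND 21-41 replicate 2, 3, 4 or 5 (adjusted p up to 0.107), Col5a1 without replicate 2, 4 or 5 of that group (up to 0.0697) and Col13a1 without its replicate 4 (0.0537). Markers of other cells moved over the same interval in OIL. Of 13 fibroblast markers other than collagens all were higher and 6 rose (median 0.41), 12 of 13 luminal epithelial markers rose (median 1.45), 14 of 17 fat cell markers fell (median -0.64), 11 of 12 B cell and lymph node markers fell (median -1.49), and none of 11 muscle markers passed (median 0.43). The fibroblast score ran from -0.57 to 0.22 over both groups of PND 21 and from 0.16 to 0.57 at PND 42. With the muscle and B cell scores as covariates 6 genes were called: Col16a1 (0.31), Col7a1 (0.41), Col12a1 (0.67), Col6a6 (-1.09), Col4a3 (-0.59) and Col4a4 (-0.60). Without muscle-rich arrays Col1a2, Col3a1 and Col13a1 did not pass (adjusted p = 0.160, 0.0721 and 0.0883). The part of the fibroblast, fat and epithelial markers in the result was not tested.

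The same step was read in each chemical on its own arrays. In MPB, 2 of 35 genes rose (3.53% of all genes) and 3 fell (4.18%); in TCS, 6 rose (8.87%) and 2 fell (4.71%); in DEP, 5 of 21 rose (22%) and 4 fell (13.6%). Without the low-Epcam arrays, a setting chosen after seeing the data, 3 genes were called in MPB in place of 5, with Col4a3 (adjusted p = 0.0815) and Col12a1 (0.0540) losing their calls, and all 10 calls in OIL were kept. Whether the age step differed between treatments was not tested.

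Col6a6 fell in each treatment. In MPB it read 9.93, 9.75, 9.83, 9.36 and 9.0 after GD 1-20 and 9.87, 9.12, 9.31, 9.31 and 9.49 after PND 1-20, against 8.43, 8.0, 8.59, 9.23 and 8.46 after PND 21-41. The difference was -0.96 ± 0.19 (adjusted p = 0.00389). The array at 9.23 was muscle-rich, and without muscle-rich arrays the difference was -1.11. Within batches it was -1.30 in batch 1 and -0.45 in batch 2. In TCS Col6a6 ran from 9.04 to 9.89 at PND 21 and read 8.40, 9.13 and 8.12 at PND 42, so the groups overlapped in 1 array. The fall was 0.72 ± 0.19 on the log2 scale (adjusted p = 0.0253), and it lost the threshold when 1 of 4 arrays was left out: TCS after GD 1-20 replicate 2 (0.0537), TCS after PND 1-20 replicate 3 (0.0528) and TCS after PND 21-41 replicate 1 (0.131) or 3 (0.0910). In DEP it ran from 9.15 to 9.95 at PND 21 and read 8.0, 8.73, 8.72, 8.54 and 8.08 at PND 42, with no overlap and a difference of -1.08 ± 0.16 (adjusted p = 9.21e-05).

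Col7a1 rose in each treatment as well. The 3 TCS arrays of PND 42 read 8.41, 8.14 and 7.87, above a PND 21 range from 7.21 to 7.66, and the rise was 0.64 ± 0.12 (adjusted p = 0.00337). The MPB arrays read 8.17, 8.28, 7.80, 8.21 and 7.52 at PND 42, overlapping a PND 21 range from 7.30 to 7.84 (0.49 ± 0.11, adjusted p = 0.0128). The DEP arrays read 7.99, 7.89, 8.17, 7.99 and 8.17, and 1 DEP array of PND 21 (8.71, after GD 1-20 replicate 4) lay above them all (0.47 ± 0.16, adjusted p = 0.0312). In MPB the call was lost without MPB after PND 21-41 replicate 2 (adjusted p = 0.0574) and without muscle-rich arrays (0.0972). In DEP it was lost without DEP after GD 1-20 replicate 2 or 5 and DEP after PND 21-41 replicate 3 or 5 (adjusted p up to 0.0870), and without muscle-rich arrays (0.159).

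Col16a1 rose by 0.65 ± 0.13 in TCS (adjusted p = 0.00616) and by 0.49 ± 0.12 in DEP (0.00578), and differed by 0.40 ± 0.14 in MPB without passing (0.0842). Its 3 TCS arrays of PND 42 read 8.56, 8.78 and 8.28, and its 5 DEP arrays read 8.37, 8.35, 8.66, 8.59 and 8.62. Both calls held with any 1 array left out, and the DEP call was lost without muscle-rich arrays (adjusted p = 0.0585). In MPB the 5 arrays of PND 42 read 8.29, 8.63, 8.30, 9.05 and 8.09, of which the highest was the muscle-rich one.

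The paired genes Col4a3 and Col4a4 fell in MPB (-0.46 ± 0.13 and -0.48 ± 0.13, adjusted p = 0.0337 and 0.0272) and in DEP (-0.56 ± 0.13 and -0.55 ± 0.12, adjusted p = 0.00378 and 0.00255). In TCS they differed by -0.23 ± 0.19 and -0.30 ± 0.15, which did not pass (adjusted p = 0.481 and 0.214). The TCS arrays of Col4a4 at PND 42 read 7.82, 7.80 and 7.65, below a PND 21 range from 7.87 to 9.08. The highest array of that range was muscle-rich, as was the highest MPB array of PND 21 (8.96). Without muscle-rich arrays Col4a3 differed by -0.40 in MPB (adjusted p = 0.0862) and Col4a4 by -0.46 (0.0340), and the DEP falls were -0.43 and -0.48 (0.0155 and 0.00886). In MPB, Col4a3 also lost its call in 8 of 15 leave-one-out fits (adjusted p up to 0.104) and Col4a4 in 3, those without MPB after PND 21-41 replicate 1, 2 or 3 (up to 0.0919).

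Other members passed in some treatments only, and no difference between treatments was tested. In TCS Col5a3 (0.54 ± 0.16), Col6a2 (0.54 ± 0.16), Col5a2 (0.53 ± 0.17) and Col3a1 (0.41 ± 0.12) rose, and Col10a1, the hypertrophic cartilage chain, fell by 0.33 ± 0.10 on the log2 scale. Their adjusted p lay between 0.0341 and 0.0497, and each lost its call in 6 to 9 of 12 leave-one-out fits. Col5a3 was 0.31 without TCS after PND 21-41 replicate 2. Col10a1 had a mean of 6.69 in TCS at PND 21, below the array medians, which ran from 7.09 to 7.27. In DEP Col12a1 (0.49 ± 0.18), Col14a1 (0.37 ± 0.14) and Col5a2 (0.37 ± 0.13) rose and Col8a1 fell (-0.44 ± 0.16), with adjusted p between 0.0342 and 0.0415, and each lost its call in 8 to 11 of 15 such fits. With arrays centred on their medians, Col7a1, Col12a1, Col14a1 and Col5a2 did not pass in DEP.

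**Figure D2:**
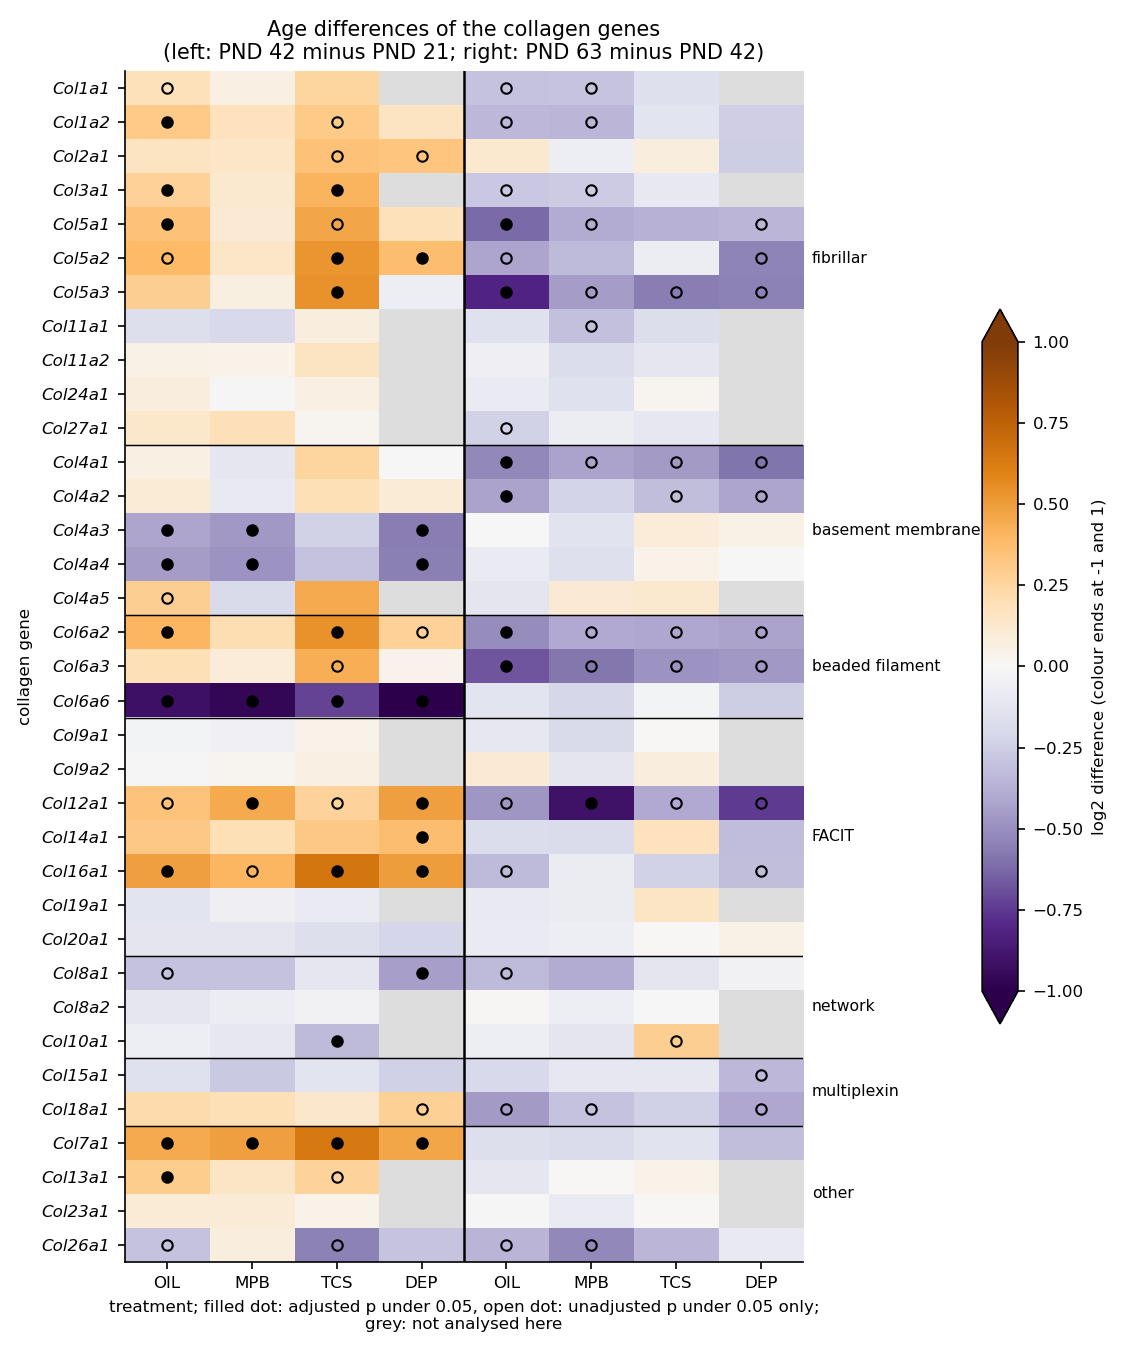
Log2 differences of all 35 collagen genes (vertical axis, grouped by class) between ages in OIL, MPB, TCS and DEP (horizontal axis), PND 42 minus PND 21 on the left and PND 63 minus PND 42 on the right; filled dots mark adjusted p under 0.05, open dots unadjusted p under 0.05 alone, and grey cells were not analysed here. Col6a6 and Col7a1 carry a filled dot in all 4 treatments of the first step, and 32 of 35 genes in OIL and 33 of 35 in MPB are negative in the second.

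From PND 42 to PND 63 the direction was the other way. In OIL 6 of 35 genes fell (0.352% of all genes) and 0 rose (0.429%). They were the type V genes Col5a3 and Col5a1, the type VI genes Col6a3 and Col6a2 and the basement membrane genes Col4a1 and Col4a2. In all, 32 of the 35 were lower at PND 63, with a median of -0.18 against -0.01 over all genes, and 16 were lower at unadjusted p under 0.05 (7.06% of all genes). This step and the previous one share the arrays of PND 42, so a high value there enters both with opposite signs.

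Col5a3 read 9.42, 10.23, 10.18, 9.95 and 10.29 at PND 42 and 9.35, 9.26, 9.18, 9.30 and 8.90 at PND 63, a difference of -0.82 ± 0.16. Col5a1 read 9.65, 10.08, 9.94, 10.06 and 10.04 and then 9.46, 9.25, 9.43, 9.46 and 9.05 (-0.62 ± 0.12). In both type V genes every array of PND 63 lay below every array of PND 42. Col6a3, a core type VI chain, read 10.97, 11.31, 11.51, 11.87 and 11.70 and then 11.01, 10.55, 10.81, 10.87 and 10.74 (-0.68 ± 0.14). Its ages overlapped, because replicate 1 at PND 42 lay below replicate 1 at PND 63. Col6a2 read 11.27, 10.88, 11.05, 10.87 and 10.78 at PND 63, all below its arrays of PND 42 (-0.51 ± 0.10).

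Col4a1, a chain of the general basement membrane heterotrimer, read 10.12, 10.27, 10.41, 10.36 and 10.86 at PND 42 and 9.64, 9.76, 9.87, 10.12 and 10.02 at PND 63 (-0.52 ± 0.10). Its partner Col4a2 read 10.19, 10.35, 10.43, 10.08 and 10.39 and then 9.91, 9.89, 10.05, 9.91 and 9.56 (-0.42 ± 0.10). Neither gene's ages overlapped, and both margins were narrow. The chains Col4a3 and Col4a4 differed by -0.002 ± 0.10 and -0.08 ± 0.09 over this step. The adjusted p of the 6 genes lay between 0.0334 and 0.0432 in limma.

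The 6 calls were close to the threshold. None held with no batch term or within either batch, although all 6 differences were negative in both (Col5a3 -0.68 and -1.02, Col4a1 -0.51 and -0.54). The number called was 0 without OIL after PND 21-41 replicate 3 or 5 and without OIL after PND 42-62 replicate 2, 3 or 5, 1 without OIL after PND 21-41 replicate 2 or 4, 3 without OIL after PND 42-62 replicate 4, and 8 at most. The family median was -0.10 in batch 1 (25 of 35 lower) and -0.33 in batch 2 (33 of 35 lower). Of the 13 fibroblast markers 10 were lower and 0 passed (median -0.19, 4 at unadjusted p), and all 11 muscle markers were lower with 0 called (median -0.98). Without muscle-rich arrays the 6 genes kept their calls, with Col5a3 at -1.04 and Col4a1 at -0.65.

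In the treated animals the same step gave few calls. In MPB, Col12a1 alone fell (1 of 35, against 0.033% of all genes) and 0 rose (0.275%), while 33 of 35 genes were lower (median -0.18), 12 of them at unadjusted p under 0.05 (4.45% of all genes). In TCS 0 of 35 were called in limma (0.0055% of all genes rose and 0% fell), 22 were lower (median -0.11), and at unadjusted p under 0.05 6 were lower (2.32% of all genes) and 1 was higher (2.01%). In DEP 0 of 21 were called (0.0148% and 0.0739%), 19 were lower (median -0.33 against -0.04 over all genes), and 11 were lower at unadjusted p under 0.05 (8.15% of all genes). Col4a1 was -0.42 ± 0.12 in MPB, -0.45 ± 0.14 in TCS and -0.59 ± 0.16 in DEP, and Col5a3 was -0.45 ± 0.16, -0.56 ± 0.18 and -0.54 ± 0.22, none of them past the threshold.

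Col12a1 encodes a fibril-associated chain of dense and load-bearing stroma. In MPB it read 10.14, 10.10, 10.14, 10.58 and 10.11 at PND 42 and 9.03, 9.25, 9.31, 9.58 and 9.39 at PND 63, without overlap, a difference of -0.90 ± 0.14 (adjusted p = 0.00661). It had risen from PND 21 (0.45 ± 0.13, adjusted p = 0.0324), when its 10 arrays ran from 9.04 to 10.17, and that call was lost in 6 of 15 leave-one-out fits (adjusted p up to 0.0867). The fall held with any 1 array left out. Within batches it was -0.93 and -0.86 without passing, and without muscle-rich arrays it was -0.85 (adjusted p = 0.0538). All 9 cell cycle markers were lower in MPB over the same step (median -1.31), 9 at unadjusted p under 0.05 and 0 called, and their part in the result was not tested. In OIL, Col12a1 read 9.43, 10.41, 9.97, 9.91 and 10.49 at PND 42 and 9.42, 9.44, 9.82, 9.93 and 9.24 at PND 63, which overlapped (-0.47 ± 0.17, adjusted p = 0.227). It was -0.40 ± 0.13 in TCS and -0.75 ± 0.21 in DEP, neither past the threshold.

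The genes that fold, cross-link, bind and degrade collagen were read beside the chains. Between PND 21 and PND 42 in OIL, 8 of 17 genes of chain folding and modification rose and 1 fell, 5 of 12 genes of propeptide processing and cross-linking rose, and 5 of 9 genes of fibril-binding proteins rose. Of all genes 12% rose and 10.5% fell. Serpinh1, the collagen chaperone of the endoplasmic reticulum, rose by 0.47 ± 0.13, and Fkbp10, a prolyl isomerase for collagen, by 0.50 ± 0.12. Plod2, which hydroxylates telopeptide lysines, was the gene that fell (-0.73 ± 0.12). Bmp1, the C-propeptide proteinase, rose by 0.60 ± 0.09, and the lysyl oxidase family members Loxl1 and Loxl2 by 0.70 ± 0.12 and 0.53 ± 0.14. Of the fibril-binding proteins Fn1, fibronectin, rose by 0.78 ± 0.12 and Postn, periostin, by 0.55 ± 0.11; Lum (0.56 ± 0.19) also stood in the fibroblast list.

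Degrading enzymes moved both ways over that step. Mmp14, a membrane-bound collagenase, rose by 1.05 ± 0.11, Ctsk, the cathepsin that cuts the helix, by 1.06 ± 0.15 and the gelatinase Mmp2 by 0.60 ± 0.11. The neutrophil collagenase Mmp8 fell by 1.27 ± 0.27 and the gelatinase Mmp9 by 1.03 ± 0.28. Of 9 collagen receptors 2 rose and 2 fell, among them Ddr1, the epithelial collagen receptor kinase (0.89 ± 0.16), and Itga1, an integrin chain (-0.53 ± 0.09). Of 6 inducer genes Tgfb3 (1.40 ± 0.19) and Smad3 (0.41 ± 0.08) rose and Tgfb1 fell (-0.44 ± 0.14). In MPB, TCS and DEP Ctsk rose by 0.88 ± 0.14, 1.11 ± 0.20 and 1.2 ± 0.12 and Mmp14 by 0.96 ± 0.19, 1.36 ± 0.15 and 1.2 ± 0.13.

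Between PND 42 and PND 63 in OIL, 16 of the 17 folding genes were lower and 0 were called in limma (10 at unadjusted p under 0.05, against 7.06% of all genes, median -0.28). Of the processing and cross-linking genes 10 of 12 were lower, and Tll1, a tolloid-like propeptide proteinase, rose by 1.16 ± 0.25. Among the receptors Mrc2, which takes up collagen fragments, fell by 0.60 ± 0.13 and the inhibitory immune receptor Lair1 rose by 0.49 ± 0.11. In TCS Tll1 rose by 1.41 ± 0.16.

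The chemicals were compared with OIL of the same window. No collagen gene passed the adjusted threshold in limma for any chemical in any of the 13 comparisons, nor between OIL after GD 1-20 and OIL after PND 1-20. Chemicals of 1 window share their OIL arrays, so their differences are not independent of each other.

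After GD 1-20, member differences ran from -0.20 to 0.17 in MPB, from -0.24 to 0.18 in TCS and from -0.17 to 0.39 in DEP, and 0 members had an unadjusted p under 0.05 in each (4.02%, 6.8% and 6.97% of all genes did, and 0.0055%, 0.0055% and 0% passed adjusted). In MPB the batches differed in sign, with a median of 0.18 in batch 1 (29 of 35 higher, 8 genes at unadjusted p under 0.05) and -0.19 in batch 2 (26 of 35 lower, 6 genes). All batch 1 arrays of that MPB group were flagged: replicates 1 and 2 were muscle-rich and replicates 1 and 3 low-Epcam. OIL after GD 1-20 replicate 2, also of batch 1, was low-Epcam. The part of these arrays in the split was not tested. In DEP 17 of 21 genes were higher, with a median of 0.13 against -0.02 over all genes, and medians of 0.13 and 0.10 within the batches. OIL after GD 1-20 against OIL after PND 1-20 gave differences from -0.27 to 0.30 and 0 members at unadjusted p (6.8% of all genes, 0.0055% adjusted). Here too the batches differed in sign: 27 of 35 genes were lower in batch 1 (median -0.14, 10 at unadjusted p under 0.05) and 22 were higher in batch 2 (median 0.10, 2 at unadjusted p).

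After PND 1-20, MPB and DEP had 0 members with an unadjusted p under 0.05 (1.67% and 2.72% of all genes; 0% and 0% adjusted), with ranges from -0.17 to 0.16 and from -0.31 to 0.19. In DEP 17 of 21 genes were lower in batch 1 (median -0.28, 4 at unadjusted p) and 16 were higher in batch 2 (median 0.20, 2 at unadjusted p). In MPB 27 of 35 were lower in batch 1 and 18 were higher in batch 2. In TCS 30 of 35 genes were lower, with a median of -0.20 against -0.01 over all genes, and 12 were lower at unadjusted p under 0.05 (4.56% of all genes), with 0 higher (1.69%). None passed adjusted (0% of all genes, smallest adjusted p of a member 0.756). Of the 11 fibrillar genes 8 were among the 12, and of the 7 fibril-associated genes Col14a1 and Col16a1.

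Col5a3 read 9.22, 9.29, 9.41 and 9.45 in TCS after PND 1-20 and 9.72, 9.88, 10.13, 9.66 and 9.86 in OIL, a difference of -0.50 ± 0.17 with no overlap. Col14a1, a fibril-associated chain, read 11.27, 11.66, 11.38 and 11.21 against 11.93, 12.08, 12.06, 11.29 and 11.75 (-0.49 ± 0.20). Col1a1 read 12.92, 13.26, 13.04 and 13.17 against 13.40, 13.51, 13.50, 13.05 and 13.26 (-0.28 ± 0.12). Both pairs of groups overlapped. The differences were those of batch 1, where the median was -0.29 with 17 genes at unadjusted p under 0.05. In batch 2, which held 1 TCS array, the median was -0.001 with 0, and Col16a1, Col1a1, Col2a1 and Col7a1 were slightly higher there. All 13 fibroblast markers were lower as well (median -0.35, 7 at unadjusted p), all 13 luminal epithelial markers were lower (median -0.77) and all 12 B cell and lymph node markers were higher (median 0.88), 0 of each called. The fibroblast score ran from -0.40 to -0.24 in TCS and from -0.37 to 0.20 in OIL. The part of these cells in the collagen differences was not tested.

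After PND 21-41, 0 members were called (0%, 0% and 0.0148% of all genes in MPB, TCS and DEP). At unadjusted p under 0.05 there were 2 in MPB (9.84% of all genes), 0 in TCS (2%) and 0 in DEP (2.26%). In MPB these were Col26a1 (0.31), which read 7.61, 7.48, 7.61, 7.12 and 7.27 against 7.10, 7.05, 7.19, 7.13 and 7.06 in OIL, and the basement membrane gene Col4a5 (-0.50), which read 7.69, 7.75, 7.73, 8.41 and 7.61 against 8.69, 7.85, 8.07, 8.83 and 8.26. The groups overlapped in both genes, and the highest Col4a5 arrays, MPB replicate 4 and OIL replicates 1 and 4, were the muscle-rich ones. After PND 42-62, 0 members were called (0.0055%, 0% and 0% of all genes). Col2a1 (-0.25) and Col4a3 (-0.26) had an unadjusted p under 0.05 in MPB (17.8% of all genes), and 0 did in TCS (3.01%) and DEP (14.7%). In MPB 32 of 35 genes were lower in batch 1 (median -0.15) and 18 were higher in batch 2, and in DEP 19 of 21 were lower in batch 1 (median -0.16) and 16 were higher in batch 2 (median 0.07). In TCS 29 of 35 genes were higher with the batch term (median 0.05), against 20 in batch 1 alone, which holds all these TCS arrays, and 18 with no batch term (median 0.006 in both).

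The 95% intervals show the precision of these comparisons, for chains chosen after their values were seen. For Col1a1 the 95% interval of MPB minus OIL after GD 1-20 ran from -0.25 to 0.22, and that of TCS minus OIL after PND 42-62 from -0.20 to 0.30. For Col6a6 the interval of TCS minus OIL after PND 21-41 ran from -0.56 to 0.56, and that of DEP minus OIL after PND 42-62 from -0.65 to 0.05. For Col7a1 that of MPB minus OIL after PND 1-20 ran from -0.33 to 0.09. A moderated F test of whether a chemical's difference from OIL varied over the 4 short windows called 0 members in limma for MPB, TCS and DEP (0.0165%, 0% and 0.0148% of all genes), with smallest adjusted p of 0.712, 1.00 and 0.877 and 0, 1 and 0 members at unadjusted p under 0.05.

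**Figure D3:**
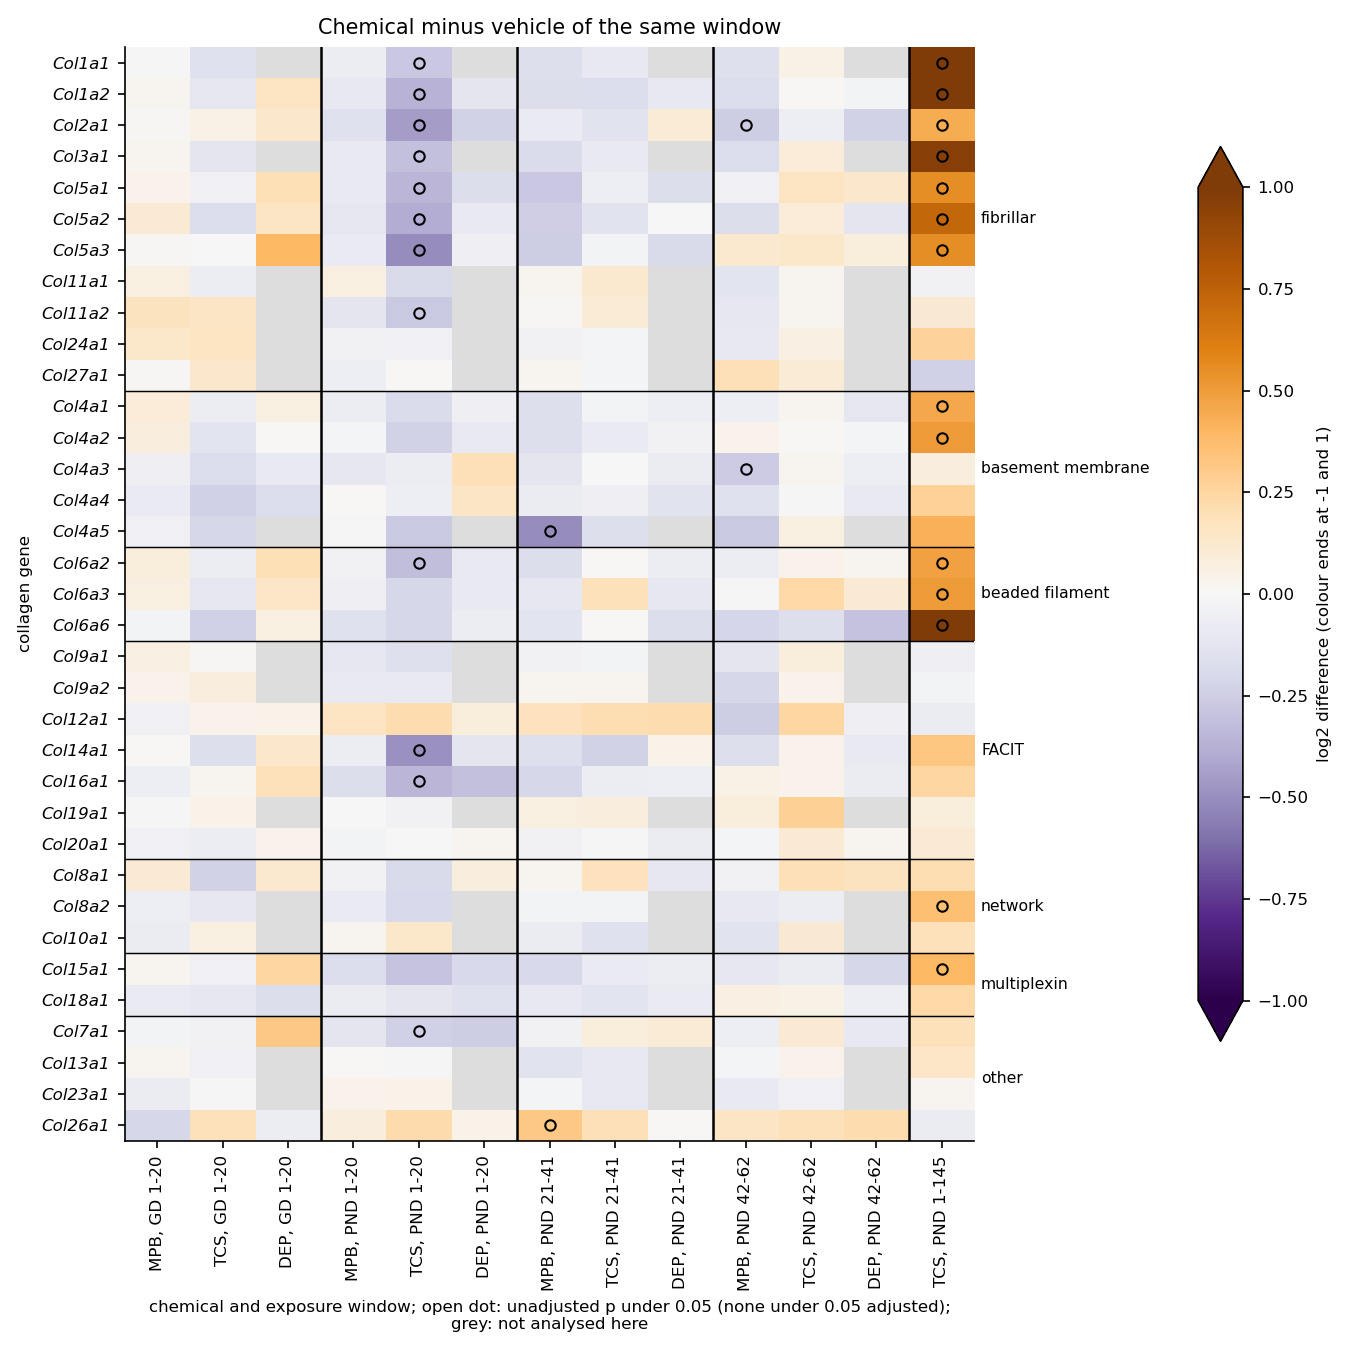
Log2 differences of the 35 collagen genes (vertical axis, grouped by class) between each chemical and OIL of the same window (horizontal axis, ordered by window); open dots mark unadjusted p under 0.05 and grey cells were not analysed here. The open dots gather in TCS after PND 1-20, where 12 genes were lower, and in chronic TCS (PND 1-145), where 14 were higher, and no gene passed the adjusted threshold.

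The chronic TCS glands, taken at the end of lactation, had higher values for much of the family than the chronic OIL glands, at 3 arrays each. Of the 35 genes 29 were higher, with a median of 0.27 against 0.01 over all genes, and 14 were higher at unadjusted p under 0.05 (6.78% of all genes) while 0 were lower (6.15%). None passed adjusted in limma (0% of all genes), and the smallest adjusted p of a member was 0.300, for the fibrillar gene Col2a1. That gene read 5.06, 5.13 and 5.35 in TCS against 4.79, 4.76 and 4.68 in OIL. Those values lay mostly below the array medians, which ran from 5.34 to 5.43. The 14 comprised 7 fibrillar genes, all 3 beaded filament genes, Col4a1 and Col4a2, Col15a1 and Col8a2, and 0 of 7 fibril-associated genes.

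Col1a1 (cluster 17650326) read 9.89, 9.44 and 11.09 in chronic TCS and 8.24, 9.46 and 8.90 in chronic OIL, a difference of 1.27 ± 0.44 with a 95% interval from 0.25 to 2.30 (adjusted p = 0.323). Col1a2 read 10.01, 9.61 and 11.01 against 8.54, 9.77 and 9.28 (1.02 ± 0.41), and Col3a1 read 10.87, 10.04 and 11.36 against 9.27, 10.17 and 9.92 (0.97 ± 0.35). In all 3 genes TCS replicate 3 was the highest array, and TCS replicate 2 lay below OIL replicate 2. Without TCS replicate 3 the Col1a1 difference was 0.80, the lowest of the leave-one-out values, which reached 1.62.

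Col6a6 read 7.54, 6.56 and 6.76 in chronic TCS and 5.00, 6.50 and 6.14 in chronic OIL (1.08 ± 0.40), without overlap but with a gap of under 0.1. Col5a2, of type V collagen, read 7.34, 7.13 and 8.0 against 6.55, 6.92 and 6.83 (0.72 ± 0.23), also without overlap. The basement membrane gene Col4a2 read 7.52, 7.53 and 7.97 against 7.37, 7.07 and 7.07 (0.50 ± 0.17). Col12a1, by contrast, read 7.41, 7.22 and 7.40 against 8.0, 7.12 and 7.13, and its groups overlapped.

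Genes that act on collagen and differed at unadjusted p under 0.05 were mostly higher in chronic TCS, and none passed adjusted. The examples named were chosen after their values were seen. At unadjusted p under 0.05, where 6.78% of all genes were higher and 6.15% lower, 8 of 17 folding genes, 4 of 12 of processing and cross-linking and 4 of 6 collagenases were higher, for example Fkbp10 (0.67 ± 0.15), Adamts2, the N-propeptide proteinase (1.05 ± 0.36), and Mmp2 (1.10 ± 0.36). Of the fibril-binding genes Sparc (0.69 ± 0.18), Bgn (0.71 ± 0.24) and Ogn (0.52 ± 0.21) were higher at that level, and no gene of that list was lower. Ccn2, a matricellular inducer of matrix genes, differed by 1.25 ± 0.22, and Tgfb1 of the inducers by 0.55 ± 0.17. Among the receptors 0 of 9 were higher at unadjusted p, and the collagen receptor kinase Ddr1 was lower (-0.69 ± 0.28, unadjusted p = 0.0404), as was Tgfb2 of the inducers (-0.64 ± 0.23, unadjusted p = 0.0248). Other cells' markers moved too: the fibroblast score read 0.28, -0.17 and 0.79 in TCS and -0.31, -0.12 and -0.47 in OIL, the fat cell score 0.14, -0.06 and 0.89 against -0.45, -0.21 and -0.31, and the endothelial score 0.23, 0.17 and 0.40 against -0.18, -0.25 and -0.37. The macrophage score read 0.14, -0.05 and 0.85 in TCS against -0.09, -0.10 and -0.76, and the Schwann cell score 0.13, 0.07 and 0.15 against 0.00, -0.20 and -0.16. The fibroblast score overlapped between the groups, and the fat cell, endothelial, macrophage and Schwann cell scores did not. All 13 fibroblast, 15 of 17 fat cell and all 9 endothelial markers were higher. The luminal epithelial score had a lower mean in TCS, at -0.21, 0.12 and -0.31 against 0.20, -0.03 and 0.23 in OIL, and overlapped. OIL replicate 3 was muscle-rich (score 2.02). The part of these cells in the result was not tested.

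**Figure D4:**
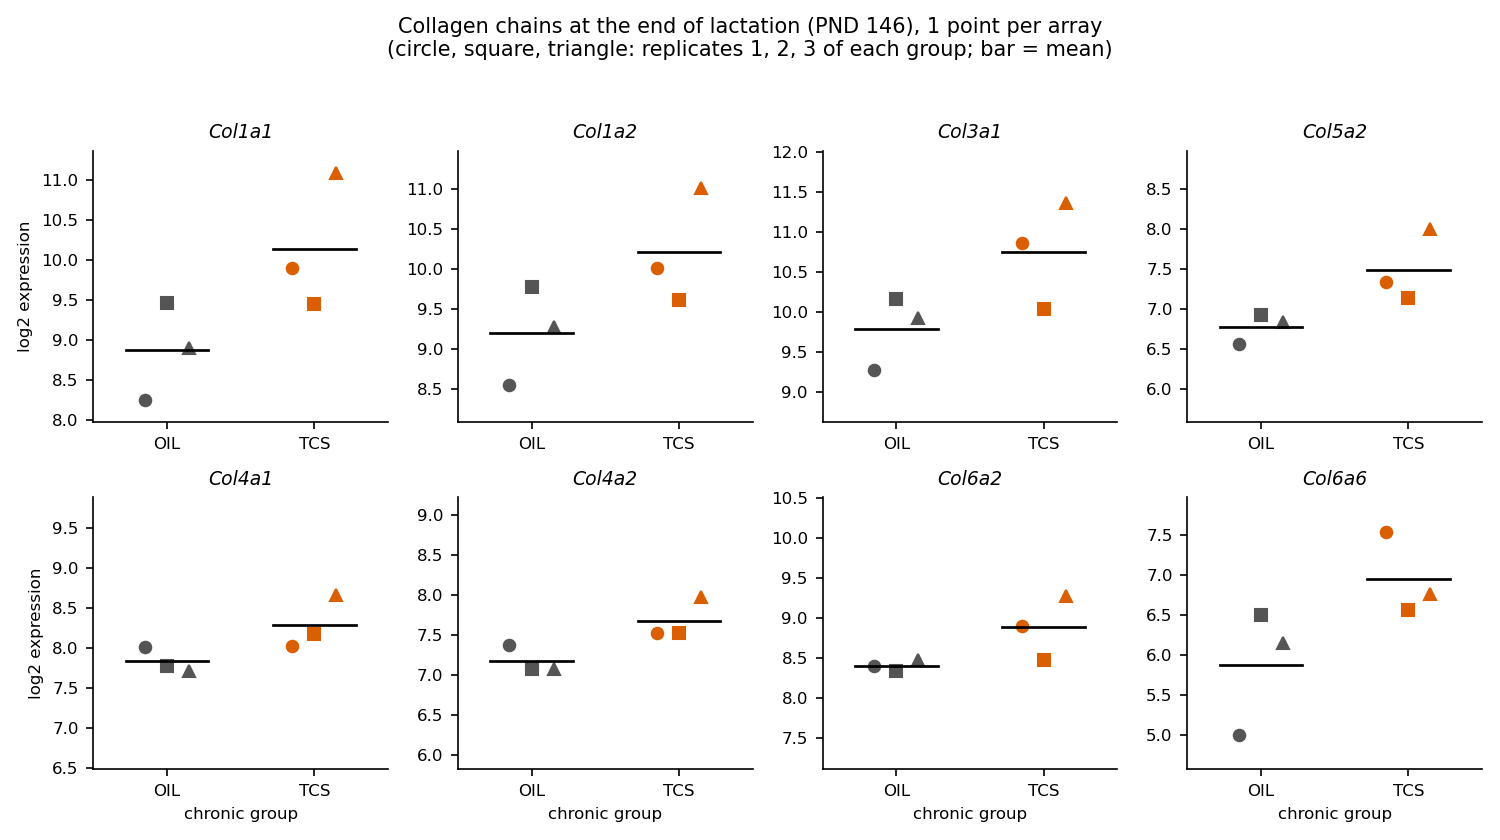
Log2 expression of 8 collagen genes in the chronic OIL and TCS glands at PND 146, with 1 point per array, a symbol per replicate and a bar at each mean of 3 arrays. The TCS mean is the higher in each panel (Col1a1 by 1.27), with replicate 3 of TCS, the triangle, on top in 7 of the 8 genes and Col1a1, Col1a2, Col3a1 and Col6a2 overlapping between groups.

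Beyond ages and treatments, many collagen chains varied together from gland to gland, whether or not they share a molecule. Each array was set against a fit with group and batch as separate terms. These correlations thus leave out the mean group differences, but not group differences that vary between batches. In all, 15 relations were computed, with adjusted permutation p over the 15. Over the 55 arrays of the MPB, TCS and OIL table, Col1a1 and Col1a2 had r = 0.95 (rho 0.96), Col5a1 and Col5a2 r = 0.92 (rho 0.91), Col6a2 and Col6a3 r = 0.89 (rho 0.90), Col4a3 and Col4a4 r = 0.87 (rho 0.82) and Col4a1 and Col4a2 r = 0.86 (rho 0.84). For each, permutation p was 1e-05, the smallest that 100000 permutations can give, and adjusted p = 1.67e-05 for r. Without the 2 arrays farthest from the median of the first gene these r were 0.94, 0.90, 0.87, 0.82 and 0.83. Genes of different molecules were related too: Col1a1 and Col3a1 had r = 0.92 (rho 0.91) and Col3a1 and Col5a2 r = 0.84 (rho 0.82), with the same permutation p, and 0.90 and 0.81 without the 2 farthest arrays. The general and the special type IV pair were not so related: Col4a1 and Col4a4 had r = 0.22 (rho 0.24, permutation p = 0.0971 and 0.0758, adjusted 0.112 for r), 0.23 with the 2 farthest arrays left out, and -0.01 and 0.11 within batches 1 and 2.

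Col6a6 and Col6a3 had r = 0.52 (rho 0.42, permutation p = 7e-05 and 0.00143) in those arrays, 0.46 with the 2 farthest left out, and 0.34 and 0.73 within batches 1 and 2. In the 20 DEP arrays the same pair had r = -0.01 (rho -0.02, permutation p = 0.958 and 0.931), while Col6a2 and Col6a3 had r = 0.82 (rho 0.84, permutation p = 1e-05 and 3e-05). In DEP Col4a1 and Col4a2 had r = 0.94 (rho 0.91, permutation p = 1e-05 for both), Col4a3 and Col4a4 r = 0.73 (rho 0.64, permutation p = 0.00019 and 0.00317; 0.33 in batch 1 and 0.81 in batch 2), and Col4a1 and Col4a4 r = 0.24 (rho 0.06, permutation p = 0.312 and 0.797). Without the 2 farthest arrays the r of these 5 pairs, in the order given, were 0.01, 0.75, 0.89, 0.59 and -0.15. Col5a1 and Col5a2 in DEP had r = 0.72 (rho 0.68, permutation p = 0.00028 and 0.00123), and 0.68 without the 2 farthest arrays. For that pair r was 0.92 and 0.88 within batches 1 and 2, and 0.52 without muscle-rich arrays. Genes of 1 array share its tissue sample and hybridisation, and over all 595 pairs of the family the median r was 0.32 in the 55 arrays, given as a description. Scores of other cells' markers, set against the same kind of fit, were related to the chains too. The fibroblast score without collagens had r = 0.93 with Col1a2, 0.91 with Col5a1, 0.87 with Col1a1 and 0.86 with Col6a2. Its lowest r in the family was -0.50, with Col26a1. The muscle score had r = 0.61 with both Col4a3 and Col4a4, and 0.68 with Col4a5. Other scores were related to Col4a3 and Col4a4 as well: cartilage markers with r = 0.68 and 0.63, and endothelial markers with 0.52 and 0.54. The B cell and lymph node score had -0.58 and -0.51 with these genes. Over the family it ran from -0.72 with Col16a1 to 0.74 with Col26a1. The part of these cells in the correlations was not tested.

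**Figure D5:**
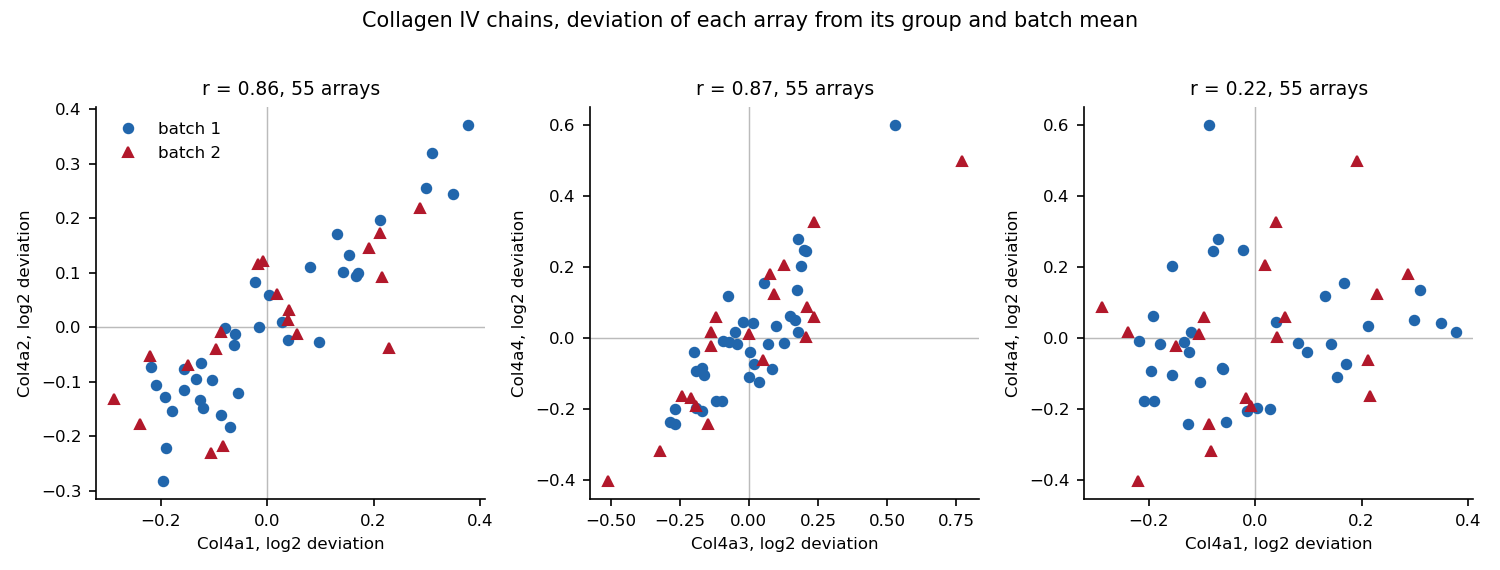
Deviations of type IV collagen genes on the log2 scale from a fit with group and batch as separate terms. There is 1 point per array over 55 arrays, with colour and shape for the batch. Col4a1 lines up with Col4a2 (r = 0.86) and Col4a3 with Col4a4 (r = 0.87), while Col4a1 and Col4a4 form a cloud (r = 0.22).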

How the data were processed

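Total RNA of the caudal mammary glands was hybridised to Affymetrix arrays. The authors' deposited values are log2 expression, and the submitters' processing notes name Affymetrix Expression Console and RMA, with no version. The series table (36685 clusters, 55 arrays) served MPB, TCS and OIL, a deposited DEP and OIL table (7780 clusters, 40 arrays) served DEP, and a chronic table served 6 arrays. Between batches, the mean difference of the OIL arrays varied over clusters with an SD of 0.169 in the DEP table. For the same clusters it was 0.401 in the series table. Over all 40 arrays of the DEP table the SD was 0.0231. Whether those values were adjusted for batch before deposit is not stated in the sources used. DEP values within batches and DEP fits with a batch term carry this limit.

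Clusters were named through the platform annotation: 18511 had 1 symbol, 575 had several and 17599 were not listed there. Samples were grouped by the labels. Differences were fitted with limma 3.58.1 in R 4.3.3 on all groups of the comparison, with the batch label as a term except in the chronic table, and p-values were adjusted by Benjamini-Hochberg over all genes of the table at 0.05, with no filter on low values. The fits were tried on arrays simulated without a batch effect, with 100 changes of 0.5 and 100 of 1 on the log2 scale. The chronic fit recovered 1 and 52 of them. The fit of OIL between PND 21 and PND 42 recovered 75 and 96, that of MPB after GD 1-20 63 and 91, and that of DEP after PND 42-62 38 and 80. Correlations and figures used Python 3.11.15, numpy 2.4.6, pandas 2.3.3 and matplotlib 3.10.9.

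All members were counted by class. The text could name every member past the threshold, the 5 with the smallest p where fewer than 5 passed, a set of main chains of types I, III, IV, V and VI in every comparison, and up to 3 rises and 3 falls past the threshold per list; other members shown beside these, such as Col6a6, Col7a1 and Col12a1 where they did not pass, were chosen after their values were seen. The members and lists were chosen with earlier results of these data known. A list score is the mean deviation of its genes from their means over the arrays of a table. Alternatives were no batch term, each batch alone, the compared groups alone for chemicals, a minimum mean of 6, cluster means and centred arrays. Further alternatives were a trended prior, composition covariates, leaving out muscle-rich arrays or each array in turn, and other deposited tables. Those for the F test across windows were chosen after seeing the data.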

Additional observations from a re-analysis of the deposited data

Results flagged for a closer look

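Of 136 group levels of 19 collagen genes, 8 had an array that stood apart from the rest of its group, by a gap to the nearest array that was a large share of the group's range; chance alone marks about 1 in 20. No explanation was tested. Col7a1 reached 7.80 in OIL after GD 1-20 replicate 1, against 7.46 for the next array. Col16a1 reached 8.41 in OIL after PND 42-62 replicate 4, against 8.34 for the next, within a group whose whole range was narrow, and 8.82 in DEP after GD 1-20 replicate 4, against 8.14. Col12a1 was lowest at 9.37 in DEP after PND 21-41 replicate 2, against 10.22 for the next array.

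The other 4 levels lay in muscle-rich arrays. In MPB after PND 21-41 replicate 4 (muscle score 4.02) Col12a1 read 10.58 against 10.14 for the next array, and Col4a5 read 8.41 against 7.75. Col4a3 read 9.09 in TCS after GD 1-20 replicate 5 (muscle score 5.07), against 8.08, and Col4a4 read 8.96 in MPB after GD 1-20 replicate 1 (muscle score 5.33), against 8.49. The part of muscle in these levels was not tested.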

How the results depend on the processing

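Of 39 called collagen differences, 388 values in other settings comprised 289 that kept and 99 that lost the call, and 0 that changed direction. The minimum mean, cluster means and trended prior lost none. Between PND 21 and PND 42 the number called was 10 in OIL, 6 in batch 1, 5 in batch 2 and 6 with covariates. In MPB it was 5, against 3 with no batch term, 3 in batch 1, 0 in batch 2, 2 without muscle-rich arrays and 3 without low-Epcam arrays (the last chosen after seeing the data). In TCS it was 8, against 3 with no batch term and 3 with covariates. In DEP it was 9, against 5 in batch 1, 0 in batch 2, 5 with centred arrays, 3 with covariates and 3 without muscle-rich arrays. Between PND 42 and PND 63 it was 6 in OIL, against 0 with no batch term, 0 in batch 1, 0 in batch 2 and 10 with covariates. In MPB it was 1, against 0 in batch 1, 0 in batch 2, 2 with covariates and 0 without muscle-rich arrays. A batch alone has fewer arrays by construction; for the other settings the cause was not tested.

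Leaving out 1 array gave 7 to 13 calls in OIL, 1 to 5 in MPB, 2 to 12 in TCS and 4 to 9 in DEP for PND 42 against PND 21, and 0 to 8 in OIL and 1 to 1 in MPB for PND 63 against PND 42. The MPB count was 3 without MPB after PND 1-20 replicate 4, and 2, 1 and 2 without MPB after PND 21-41 replicates 1, 2 and 3. The TCS count was 4, 2 and 4 without TCS after GD 1-20 replicates 1, 2 and 3, 3, 5, 3 and 5 without TCS after PND 1-20 replicates 1 to 4, and 2 and 3 without TCS after PND 21-41 replicates 1 and 2. The DEP count was 4 without DEP after PND 21-41 replicate 3. For OIL between PND 42 and PND 63 it was 1, 0, 1 and 0 without OIL after PND 21-41 replicates 2 to 5, and 0, 0, 3 and 0 without OIL after PND 42-62 replicates 2 to 5.

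For TCS against OIL after PND 1-20, batch 2 alone turned Col16a1 to 0.16, Col1a1 to 0.013, Col2a1 to 0.047 and Col7a1 to 0.10, from -0.35, -0.28, -0.45 and -0.23; it holds 1 TCS array. Batch 2 alone could not be fitted for TCS between ages. All counts of chemicals against OIL and of the F test, whose alternatives were chosen after seeing the data, were 0 under the settings tried, where the smallest adjusted p shows how far from the threshold they lay. No paired analysis was possible because replicate numbers follow accession order and only name the arrays. Signal over background was not analysed here.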
